A study of Mus musculus with 24 samples.

Results

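The let-7 family is described here through the 9 mouse miRNA probes that carry its name or its seed relative: mmu-let-7a, mmu-let-7b, mmu-let-7c, mmu-let-7d, mmu-let-7e, mmu-let-7f, mmu-let-7g, mmu-let-7i and mmu-miR-98. The rule that picks them reads probe names only, as guide strands and not by any measured value, and they are 9 of the 566 mouse miRNA probes on the panel. All 9 passed the filter on values above 0 and are among the 583 probes tested, which include 33 viral ones. The panel held 0 passenger strands of these genes. Expression was measured with the nCounter assay (NanoString), which counts color-coded probes bound to each miRNA without amplification, in 24 samples of the JygMC(A) model. JygMC(A) is a mouse mammary carcinoma line from a spontaneous tumor of a wild mouse, here carrying GFP and luciferase, so all tumor samples descend from 1 line. The tumor cells were grown in female Balb/C athymic nude mice, aged 6 to 9 weeks, after injection into the fourth mammary fat pad. Primary tumors were removed after 30 days and lungs were examined on days 40 to 50.

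Carcinoma areas (n = 5) and EMT-like areas (n = 7) of primary tumors (PT), which have a spindle morphology named for the epithelial-to-mesenchymal transition, and lung metastases (n = 4) were taken by laser capture microdissection. Normal mammary gland (NMG, n = 2) and normal lung (n = 2) served as normal tissues. The same cell line was profiled in vitro as monolayer cells (n = 2) and as 3D spheres (n = 2). Tumor samples of different groups often came from the same mouse, 1 sample in each tumor group names 3 animals on its label, and the pair of normal tissues came from the same pair of animals. The sample titles call the 2 lanes of each culture biological replicates, without saying whether they were grown separately. The p-values for cultures use a spread pooled over all 24 samples in 7 groups, mostly tumor samples. They do not measure the spread between cultures alone.

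MicroRNAs guide Argonaute proteins to messenger RNAs, mostly through pairing of the seed near the 5′ end, and so lower the output of the paired messages. The let-7 miRNAs were first known as timing switches of larval development and in mammals rise as cells differentiate, while the RNA-binding proteins Lin28a and Lin28b block their processing in stem cells. Known targets include the Ras genes, Hmga2 and Myc, and low let-7 has been described in mammary tumor-initiating cells.

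The mature sequences are shown because the whole family shares 1 seed and its members differ by few bases outside it, which is where the probes must tell them apart. They are the RefSeq entries of assembly GRCm38.p6, 5′ to 3′, with the seed (bases 2 to 8) in capitals, and all 9 members matched:
mmu-let-7a: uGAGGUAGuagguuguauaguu
mmu-let-7b: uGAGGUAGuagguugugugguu
mmu-let-7c: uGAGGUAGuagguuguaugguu
mmu-let-7d: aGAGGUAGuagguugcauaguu
mmu-let-7e: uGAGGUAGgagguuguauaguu
mmu-let-7f: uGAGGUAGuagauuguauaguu
mmu-let-7g: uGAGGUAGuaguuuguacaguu
mmu-let-7i: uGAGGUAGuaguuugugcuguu
mmu-miR-98: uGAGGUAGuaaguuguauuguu

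Each member was 22 bases long and carried the seed GAGGUAG. Of the 36 pairs of members, 4 differed at 1 position and 10 at 2 positions, and the largest distance was 6 positions. Counted from the 5′ end with the base of mmu-let-7a first, mmu-let-7e differed from mmu-let-7a by U9G, directly after the seed. mmu-let-7c differed by A19G and mmu-let-7f by G12A. mmu-let-7g carried G12U and U18C. Binding of one member to the probe of another was not measured, so values of members 1 base apart may share signal. Outside the family, mmu-miR-1961 was the 1 other probe with this seed among the 437 panel miRNAs matched to a sequence. It was near background, with deposited values from -2 to 19.

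The members come from several places in the genome. mmu-let-7e lies at chr17:17830366-17830387 on the plus strand, within the bounds of Spaca6, with Mir99b 94 bases to one side and Mir125a 367 bases to the other. mmu-let-7g lies at chr9:106178846-106178867 on the plus strand, within the bounds of Wdr82, with no other listed miRNA gene within 10 kb. The gene of mmu-let-7i, on chromosome 10, also has no such neighbour. Mirlet7a-1, Mirlet7f-1 and Mirlet7d form 1 cluster on chromosome 13, and Mirlet7c-2 and Mirlet7b another on chromosome 15. A second gene for mmu-let-7c lies beside Mir99a on chromosome 16, a second for mmu-let-7a beside Mir100 on chromosome 9, and a second for mmu-let-7f lies 785 bases from Mir98 within the bounds of Huwe1 on chromosome X. Mature miRNAs made from 2 genes have the same sequence, and the assay cannot tell the genes apart.

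The lanes differed widely in how much miRNA they held, and this bears on every level below. The sum over all mouse miRNA probes ranged from 26420 to 46507 in cultures and from 62583 to 184501 in the 16 tumor lanes. In the 4 normal lanes it ranged from 525697 to 2335740. The members were far above background in all of them: the lowest deposited value was 50, for mmu-miR-98 in spheres replicate 2, and each value was at least 4.51 times its lane's detection limit, set 2 SD above the mean negative control. Levels are given as normalized values, which are the deposited background-subtracted values divided by a lane factor from the trimmed mean of M-values (TMM). In bulk samples, fewer cells of a type and less RNA per cell cannot be told apart. Marker miRNAs followed the labels in part. The lung list (miR-34b-5p, miR-449a and miR-375) was detected in full in normal lung, with at most 1 of its 3 miRNAs in any other group. The summed epithelial list lay between 930 and 5385 in the carcinoma samples, while the EMT-like samples lay between 59.4 and 1758, so the ranges overlapped.

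The 9 members were a large part of the miRNA signal. They made up 26.3% ± 3.07 (SD, n = 5) of the summed mouse miRNA values in carcinoma. The EMT-like samples gave 26.8% ± 1.47 (SD, n = 7) and the lung metastases 26.4% ± 2.83 (SD, n = 4). The 3 tumor groups overlapped. Their share was 15.4% and 21.1% in the NMG lanes and 14.7% and 13.6% in the normal lung lanes, below every tumor lane. It was 34.9% and 34.1% in monolayer, above every other lane, and 24.8% and 26.1% in spheres, inside the range of the tumors.

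**Figure D1:**
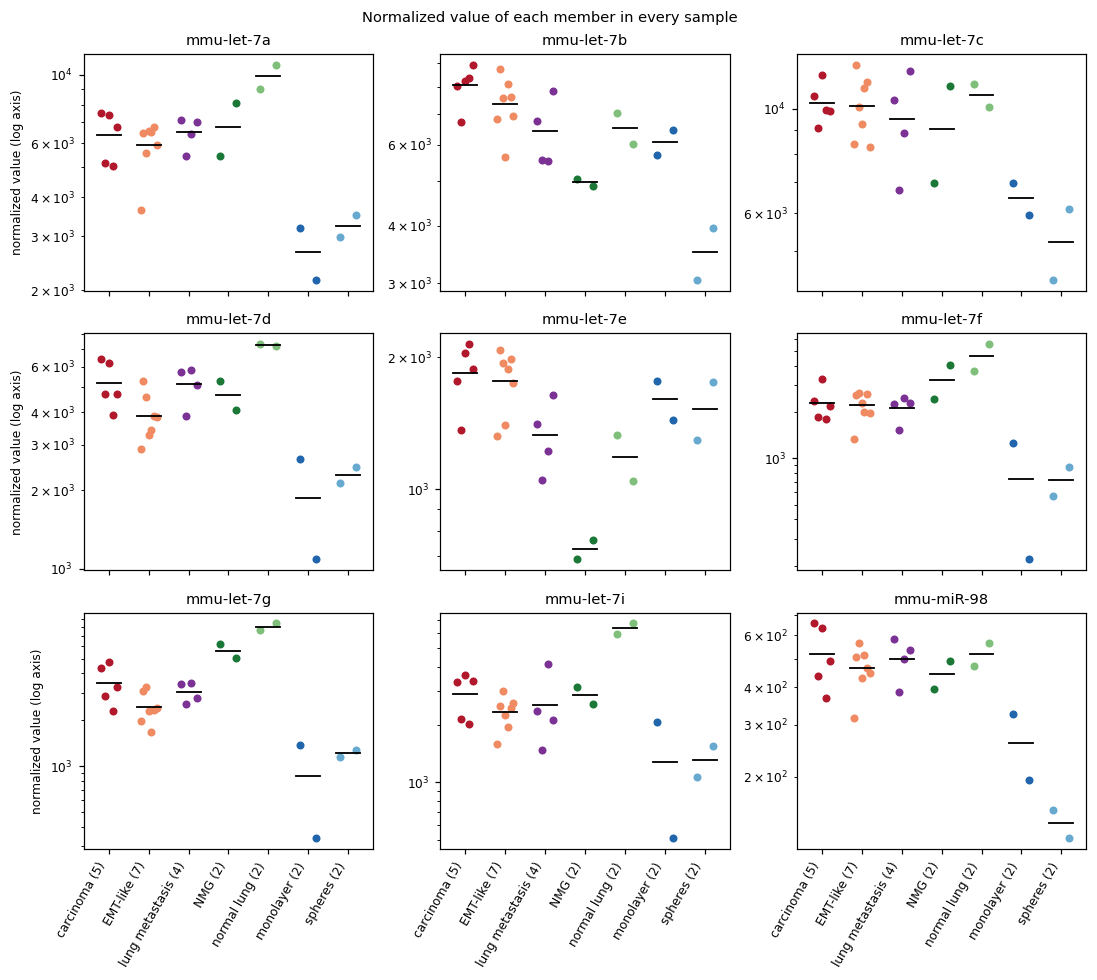
Each panel plots 1 member, with the normalized value on a log axis (each panel has its own range) against the 7 groups; points are samples, black lines are group means and the number of samples is in brackets. mmu-let-7e is lowest in the 2 NMG samples (690 and 764), while mmu-let-7g, mmu-let-7i and mmu-let-7f are highest in normal lung and lowest in the cultures.

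Across the 7 groups on this scale, the mean log2 level was highest in normal lung for 7 members. The exceptions were mmu-let-7b and mmu-let-7e, which were highest in carcinoma. It was lowest in monolayer for mmu-let-7a, mmu-let-7d, mmu-let-7f, mmu-let-7g and mmu-let-7i, in spheres for mmu-let-7b, mmu-let-7c and mmu-miR-98, and in NMG for mmu-let-7e. Most neighbours in these orders overlapped sample by sample. For mmu-let-7c, all 6 pairs of neighbouring groups overlapped. For mmu-let-7e, 5 of 6 did, and normal lung stood above NMG. For mmu-let-7g, 3 of 6 did, with normal lung above NMG, NMG above carcinoma, and the EMT-like samples above the spheres. The order of groups depends on the scaling between lanes, as given below for each comparison.

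The make-up of the family does not depend on that scaling, because each member can be set against all 9, itself included, in its own lane. The relative level used here is the log2 of a member's value minus the mean log2 of the 9 members in the same lane. Probes differ in how well they capture their target, so relative levels are compared between groups and not between members. Differences were tested with limma across all 583 probes after every lane was scaled by the geometric mean of its 9 member values, a measure chosen after the levels had been seen. The SE is given with each difference, and a ratio within a lane shows unequal change, not which member changed.

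mmu-let-7e stood apart between tumors and both other kinds of sample. Its relative level in carcinoma was -1.10, -1.03, -1.0, -0.39 and -0.86 in replicates 1 to 5. In the 7 EMT-like samples it ran from -0.96 to -0.60, and in lung metastases it was -1.22, -1.14, -1.41 and -0.98. The NMG samples were at -2.06 and -2.07 and the normal lung samples at -1.71 and -2.14, so every tumor sample was above every normal sample. The monolayer samples were at -0.22 and 0.53 and the spheres at -0.03 and 0.11, above every tumor sample. As a share of the summed values of the 9 members, mmu-let-7e amounted to 4.54% ± 0.843 (SD, n = 5) for carcinoma. EMT-like samples gave 4.83% ± 0.326 (SD, n = 7) and lung metastases 3.59% ± 0.330 (SD, n = 4). For the NMG samples that share was 1.94% and 1.86%, and for the normal lung samples 2.47% and 1.84%. Monolayer gave 7.0% and 7.84%, and spheres 7.72% and 8.13%.

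mmu-let-7g lay the other way round. Its relative level was 0.19, 0.02, 0.21, -0.31 and -0.06 in the carcinoma replicates, and the EMT-like samples ran from -0.78 to -0.05. In lung metastases it was 0.07, 0.14, 0.09 and -0.23. The NMG samples stood at 1.11 and 0.66 and the lung samples at 0.82 and 0.89, above every tumor sample. The spheres were at -0.20 and -0.35, inside the tumor range, and of the monolayer samples, at -0.59 and -1.57, only the second lay below that range. Its share of the summed member values came to 14.8% ± 3.63 (SD, n = 2) for NMG and 14.6% ± 0.546 (SD, n = 2) for normal lung. Carcinoma had a share of 8.39% ± 1.43 (SD, n = 5), and the EMT-like samples one of 6.62% ± 1.18 (SD, n = 7). The log2 ratio of mmu-let-7e to mmu-let-7g was -2.95 ± 0.313 (SD, n = 2) in NMG and -2.78 ± 0.353 (SD, n = 2) in normal lung. For carcinoma it was -0.89 ± 0.488 (SD, n = 5), for EMT-like samples -0.44 ± 0.319 (SD, n = 7) and for lung metastases -1.20 ± 0.315 (SD, n = 4). It was above 0 in all 4 cultures, from 0.17 to 2.10. mmu-let-7g was not alone in this order. The relative level of mmu-let-7f ran from -0.23 to 0.35 in normal lanes, -0.69 to -0.24 in tumor lanes and -2.18 to -0.71 in cultures. These ranges did not overlap, though the gaps between normal and tumor lanes and between tumor lanes and cultures were small.

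**Figure D2:**
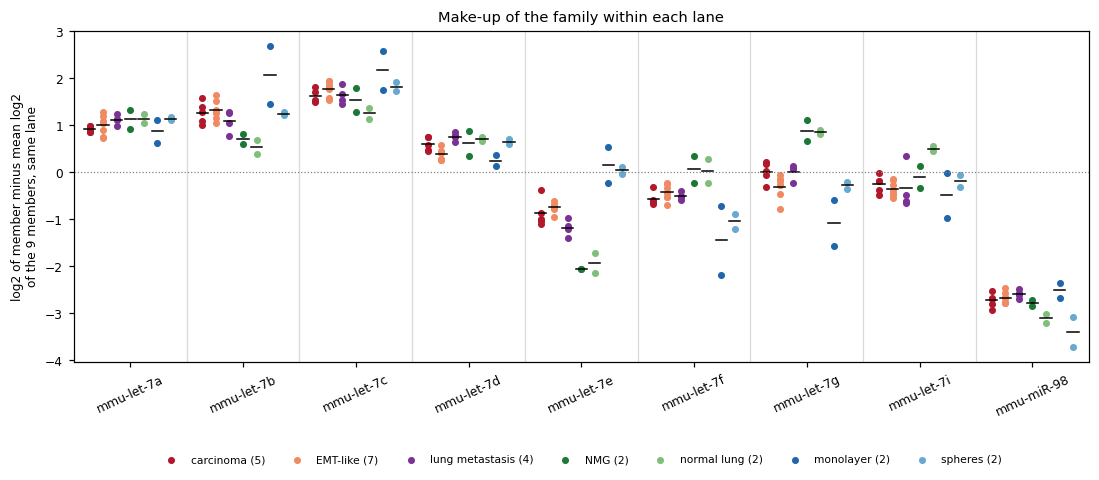
The log2 value of each member minus the mean log2 of the 9 members in the same lane, by member on the x axis and by group in color; points are samples, black lines are group means and the number of samples is in brackets. mmu-let-7e runs from about -2 in the normal tissues (-2.14 to -1.71) to near 0 in the cultures (-0.22 to 0.53), and mmu-let-7g and mmu-let-7f run the other way.

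Against NMG, mmu-let-7e was 2.28-fold higher relative to the family in carcinoma, a log2 difference of 1.19 (SE 0.215, adjusted p = 0.000221, limma). In EMT-like samples it was 2.50-fold higher, at 1.32 (SE 0.206, adjusted p = 4.66e-05, limma). mmu-let-7g was lower relative to the family in both, with log2 differences of -0.87 for carcinoma (SE 0.238, adjusted p = 0.00886, limma) and -1.19 for EMT-like samples (SE 0.228, adjusted p = 0.000435, limma). These were the members that passed in each comparison, 2 of 9, against 27.6% of all probes for carcinoma and 23.3% for EMT-like samples by the same measure. Both comparisons use the same 2 NMG samples. Without NMG replicate 1 the mmu-let-7g difference for carcinoma was -0.65 and no longer passed (adjusted p = 0.166, limma). For mmu-let-7b the relative difference was 0.55 for carcinoma and 0.61 for EMT-like samples, with adjusted p = 0.119 and 0.0776 (limma). The other 6 members lay between -0.63 and 0.24 in these 2 comparisons. The lowest of them was mmu-let-7f, at -0.63 for carcinoma and -0.49 for EMT-like samples (adjusted p = 0.0908 and 0.196, limma).

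Lung metastases against normal lung gave the same directions in other samples, which were partly from the same animals as those above. mmu-let-7e was higher relative to the family by 0.74 on the log2 scale (SE 0.222, adjusted p = 0.0112, limma) and mmu-let-7g differed by -0.84 (SE 0.246, adjusted p = 0.0100, limma). mmu-let-7i also fell, by 0.85 on the log2 scale (SE 0.271, adjusted p = 0.0154, limma), and mmu-miR-98 rose by 0.52 (SE 0.194, adjusted p = 0.0354, limma). These 4 of 9 members stand beside 44.1% of all probes called in the same comparison. The mmu-miR-98 call was lost in 5 of 30 alternatives, 4 of them with 1 sample left out (lung metastasis replicates 1, 2 and 4 and normal lung replicate 1, adjusted p = 0.0701, 0.0562, 0.0547 and 0.0922, limma), and that of mmu-let-7i with only these samples in the fit (adjusted p = 0.108, limma). Normal lung replicate 2, the lane with the highest total, carried part of this: without it 1 of 9 members was called, mmu-miR-98, and the adjusted p was 0.161 for mmu-let-7e, 0.0763 for mmu-let-7g and 0.121 for mmu-let-7i (limma). Between the normal tissues, 0 of 9 members differed in relative level by limma, with 8.92% of all probes called and 0 members at an unadjusted p under 0.05. The largest relative difference there was 0.60 for mmu-let-7i (SE 0.313, adjusted p = 0.280, limma).

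Several things moved with the relative levels of mmu-let-7e and mmu-let-7g. Lane totals were ordered as cultures, tumors and normal tissues, the order of mmu-let-7e from high to low. The 3 tumor lanes with the highest totals (166711 to 184501) had mmu-let-7e at -0.75 to -0.67, inside the range of the 16 tumor lanes (-1.41 to -0.39). For mmu-let-7g those 3 lanes lay between -0.45 and -0.18. No tumor lane reached the totals of the normal lanes. The summed blood miRNAs (miR-144, miR-451 and miR-486) ranged from 8118 to 55994 in the normal tissues and from 83.7 to 533 in the tumor lanes. None of the 3 was above the detection limit in cultures. The summed endothelial strands of miR-126 ranged from 10971 to 70141 in normal tissues and from 819 to 3114 in tumors, and both strands were at 0 after the floor in all cultures. The part of lane total and of these other cell types in the result was not tested. The normal tissues also carry a label series of their own, so series and tissue cannot be told apart. They came from nude mice and the tumor line from a wild mouse, so strain and tissue cannot be told apart in the relative levels.

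**Figure D3:**
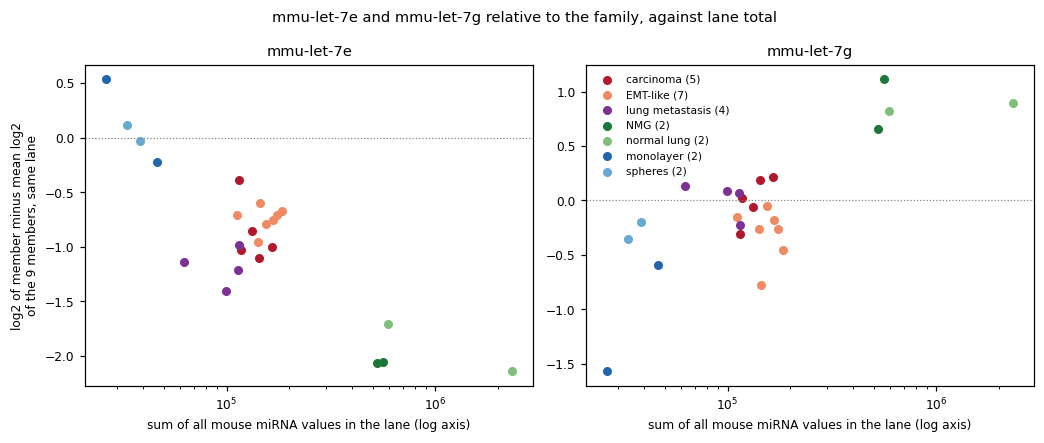
Relative level of mmu-let-7e (left) and mmu-let-7g (right) on the y axis against the sum of all mouse miRNA values in the lane on a log x axis; each point is 1 of the 24 samples, colored by group. The 4 normal lanes, at 525697 or more, have the lowest mmu-let-7e and the highest mmu-let-7g, and no tumor lane exceeds 184501.

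On the level scale, the comparison of carcinoma areas with normal mammary gland gave 2 called members. The gland came from BalbC nude mice and the tumor line from a wild mouse, so strain and tissue cannot be told apart here. mmu-let-7e stood at 1767, 1366, 2051, 2147 and 1884 in the 5 carcinoma samples and at 690 and 764 in NMG. The groups did not overlap, and the difference was 1.33 on the log2 scale (SE 0.246, adjusted p = 0.000268, limma). mmu-let-7b stood at 8058, 6729, 8254, 8373 and 8941 in carcinoma and at 5061 and 4888 in NMG, a log2 difference of 0.69 (SE 0.221, adjusted p = 0.0217, limma). Both were higher in carcinoma, where 5.49% of all probes were called higher and 29.3% were called in either direction. The mmu-let-7b call did not hold without either NMG sample (adjusted p = 0.0821 and 0.104, limma), nor with another reference lane for TMM, lung metastasis replicate 3, which put it at 0.24 (adjusted p = 0.503, limma). With lanes left unscaled, both members turned direction, to -0.25 for mmu-let-7e and -0.88 for mmu-let-7b, and with the 4 mRNA control probes as the scale mmu-let-7b was at -0.19 and mmu-let-7e at 0.45 (adjusted p = 0.590, limma).

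In EMT-like samples, mmu-let-7e ranged from 1322 to 2075, with a median of 1878, all above the NMG samples, and its log2 difference was 1.26 (SE 0.235, adjusted p = 0.000290, limma). mmu-let-7g ranged from 1666 to 3245, with a median of 2304, against 6202 and 5050 in NMG. It fell by 1.25 on the log2 scale (SE 0.368, adjusted p = 0.0141, limma). These were 2 of 9 members, with 24.9% of all probes called. The mmu-let-7g call was lost without either NMG sample, with adjusted p = 0.162 and 0.0660 (limma), and also with lanes scaled by the miRNA total, which put the difference at -0.60 (adjusted p = 0.191, limma). The mmu-let-7e difference was 0.080 with lanes unscaled and 0.23 with the mRNA controls (adjusted p = 0.939 and 0.834, limma). Over the 9 members the median difference was -0.19, beside -0.30 over all 583 probes.

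Carcinoma areas and EMT-like areas were compared to see what changes with morphology. No member passed by limma, 0 of 9, with 0 at an unadjusted p under 0.05 and 0.172% of all probes called. All 9 differences were toward carcinoma, from 0.03 for mmu-let-7c to 0.51 for mmu-let-7g, the latter with SE 0.269 and adjusted p = 0.40 (limma). mmu-let-7g stood at 4317, 2830, 4751, 2270 and 3283 in carcinoma against 1666 to 3245 over the EMT-like samples, so the groups overlapped. That common direction depended on the scaling: when lanes were scaled by the miRNA total, 3 of 9 differences were positive, and with no scaling 2 of 9. In relative level, 0 of 9 members passed, with 0.172% of all probes called, 0 members at an unadjusted p under 0.05, and differences between -0.17 and 0.32. In the 4 animals or pooled labels with both areas, mmu-let-7e was higher in carcinoma in 3, mmu-let-7b in 3 and mmu-let-7f in 1, and each of the other 6 members in 2. By label series, the 9 differences ran from -0.02 to 0.66 in the lettered animals (3 carcinoma and 2 EMT-like samples) and from -0.20 to 0.28 in the numbered ones (2 and 5).

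Lung metastases were set against the 12 primary tumor samples to ask whether the family changes with spread to the lung. No member passed by limma, 0 of 9, with 1 at an unadjusted p under 0.05 and 3.09% of all probes called. mmu-let-7e stood at 1410, 1048, 1223 and 1643 in metastases, which overlapped the primary tumors, and differed by -0.43 (SE 0.169, adjusted p = 0.167, limma). The other members lay between -0.26 and 0.24. In relative level mmu-let-7e differed by -0.39 (SE 0.148, adjusted p = 0.191, limma) and mmu-let-7d by 0.28 (SE 0.117, adjusted p = 0.224, limma). Neither passed, and 3.43% of all probes were called by this measure. With the label series of the animals as a term and tumor samples only, both did, at -0.41 for mmu-let-7e (adjusted p = 0.0368, limma) and 0.31 for mmu-let-7d (adjusted p = 0.0112, limma), and mmu-let-7d also passed with only these groups in the fit (adjusted p = 0.0369, limma). mmu-let-7i was uneven among metastases, at 2360, 1471, 4148 and 2119, with replicate 3 highest.

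Against normal lung, lung metastases had 2 of 9 members called, both lower. mmu-let-7g stood at 3429, 2532, 3443 and 2768 in metastases and at 7650 and 8487 in normal lung, a log2 difference of -1.42 (SE 0.398, adjusted p = 0.00649, limma). mmu-let-7i stood at 5930 and 6738 in normal lung, above all 4 metastases, a log2 difference of -1.43 (SE 0.434, adjusted p = 0.00967, limma). In this comparison 42.2% of all probes were called lower and 49.2% in either direction. With lanes scaled by the miRNA total 6 of 9 members were called higher in metastases and 0 lower. The direction of both members turned with scaling by the miRNA total, to 0.061 for mmu-let-7g and 0.052 for mmu-let-7i, and without normal lung replicate 2 neither passed (adjusted p = 0.0712 and 0.107, limma). mmu-let-7e was at 1326 and 1040 in normal lung, inside the range of the metastases.

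Between normal lung and NMG, all 9 members were toward lung, from 0.23 for mmu-miR-98 to 1.16 for mmu-let-7i. None passed by limma, 0 of 9, with 2 at an unadjusted p under 0.05 and 11.7% of all probes called. mmu-let-7i was at 5930 and 6738 in lung and at 3151 and 2552 in NMG (SE of the difference 0.501, adjusted p = 0.133, limma). With the miRNA total as the scale, 1 of 9 differences remained positive.

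Spheres were compared with monolayer cells, since growth as spheres is used to enrich tumor-initiating cells. On the level scale 0 of 9 members passed by limma, with 2 at an unadjusted p under 0.05 and 4.63% of all probes called. The monolayer samples did not resemble each other. Replicates 1 and 2 stood at 1256 and 220 for mmu-let-7f, at 1370 and 336 for mmu-let-7g, at 2053 and 510 for mmu-let-7i, and at 2646 and 1087 for mmu-let-7d. For mmu-let-7b they stood at 5683 and 6466 and for mmu-let-7e at 1767 and 1441. So replicate 2 was low in some members and not in others. The spheres stood at 570 and 882 for mmu-let-7f and at 1148 and 1271 for mmu-let-7g, between the monolayer samples.

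In relative level, mmu-miR-98 was the 1 member of 9 that differed between spheres and monolayer, beside 6.17% of all probes. Its normalized values were 325 and 196 in monolayer and 155 and 124 in spheres. The relative difference was -0.89 (SE 0.224, adjusted p = 0.0182, limma). The call did not hold without monolayer replicate 2 (adjusted p = 0.0671, limma), without sphere replicate 2 (adjusted p = 0.307, limma) or with only these 4 samples in the fit.

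The largest differences on the level scale lay between the cultures and the primary tumors. With TMM scaling 8 of 9 members were lower in the 4 cultures than in the 12 primary tumor samples, beside 22.0% of all probes called lower and 30.4% called in either direction. The median over the members was -1.12, against -0.08 over all 583 probes. Only 104 to 126 mouse probes were above the detection limit in the culture lanes. Most of the 583 probes were thus near the floor there, and such probes have little room to fall. Over the 196 probes above the detection limit in at least 12 samples the median was also -1.12. That filter can keep a probe absent from the 4 cultures but not one found only there. Its median is thus tilted toward lower values in cultures, and neither median can serve as a reference for the members. For 5 members every culture was below every primary tumor sample, where 11.8% of all probes were lower with no overlap. Of the 9, mmu-let-7f had the largest difference. Its values were 1256 and 220 in monolayer and 570 and 882 in spheres, against 1816 to 3300 in the carcinoma samples and 1344 to 2661 in the EMT-like ones, a log2 difference of -1.85 (SE 0.308, adjusted p = 5.22e-05, limma). mmu-let-7g fell by 1.59 on the log2 scale (SE 0.265, adjusted p = 5.17e-05, limma) and mmu-miR-98 by 1.35 (SE 0.189, adjusted p = 5.54e-06, limma). mmu-let-7e, at 1767, 1441, 1291 and 1760 in cultures, was the member not called, with a difference of -0.19 (SE 0.169, adjusted p = 0.478, limma).

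Whether the family as a whole was lower in culture depended on the scaling. When lanes were scaled by the miRNA total, the median over the members was -0.05, and when they were scaled by the 100 most abundant miRNAs it was 0.08. With these 2 scalings mmu-let-7b was called higher in cultures, at 0.34 and 0.47 (adjusted p = 0.0462 and 0.00956, limma), as was mmu-let-7e, at 0.87 and 1.0. mmu-let-7f was called lower under all 8 scalings. In relative level, 3 of 9 members were called, beside 37.9% of all probes. mmu-let-7e was higher in cultures by 0.90 (SE 0.148, adjusted p = 6.67e-05, limma), a 1.86-fold difference. mmu-let-7f fell by 0.76 on the log2 scale relative to the family (SE 0.186, adjusted p = 0.00271, limma) and mmu-let-7g differed by -0.50 (SE 0.164, adjusted p = 0.0189, limma). Without monolayer replicate 2, the mmu-let-7g difference was -0.21 and did not pass (adjusted p = 0.344, limma), while mmu-let-7e and mmu-let-7f passed without any 1 of the 24 samples.

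Marker lists did not all move the same way in this comparison. The 3 mesenchymal miRNAs (miR-199a-3p, miR-199a-5p and miR-214) summed to between 229.7 and 2844 in tumor samples and between 4.66 and 26.1 in cultures, where 0 of 3 were above the detection limit. The 2 strands of miR-126 were at 0 there, as given above. The sum of the striated muscle list (miR-1, miR-133a, miR-133b and miR-206) went the other way. It was 104 to 169 in cultures and 10.5 to 75.2 in tumor samples. Of its 4 miRNAs, 2 were above the detection limit in any monolayer lane and 1 in any sphere lane, against 2 or 3 in each tumor group. The smooth muscle list (miR-143 and miR-145) overlapped, at 404 to 1371 in cultures and 688 to 1689 in tumor samples. In spheres miR-143 was not above the limit. The summed epithelial list, at 54.5 to 112 in cultures, reached into the range of the EMT-like samples (59.4 to 1758). Of its 7 miRNAs, however, 2 were above the detection limit in any monolayer lane and 0 in spheres, against 7 in EMT-like samples. The culture sums thus come largely from values below the limit, and this overlap does not show a like epithelial level. The part of these cell types in the differences was not tested.

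The kinds of culture were also set against primary tumors one by one, a comparison added after the values had been seen. On the TMM scale mmu-let-7b differed by -0.32 in monolayer (adjusted p = 0.285, limma) and by -1.13 in spheres (adjusted p = 0.000149, limma). mmu-let-7f differed by -2.06 and -1.63 and mmu-let-7e by -0.15 and -0.23, in the same order.

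**Figure D4:**
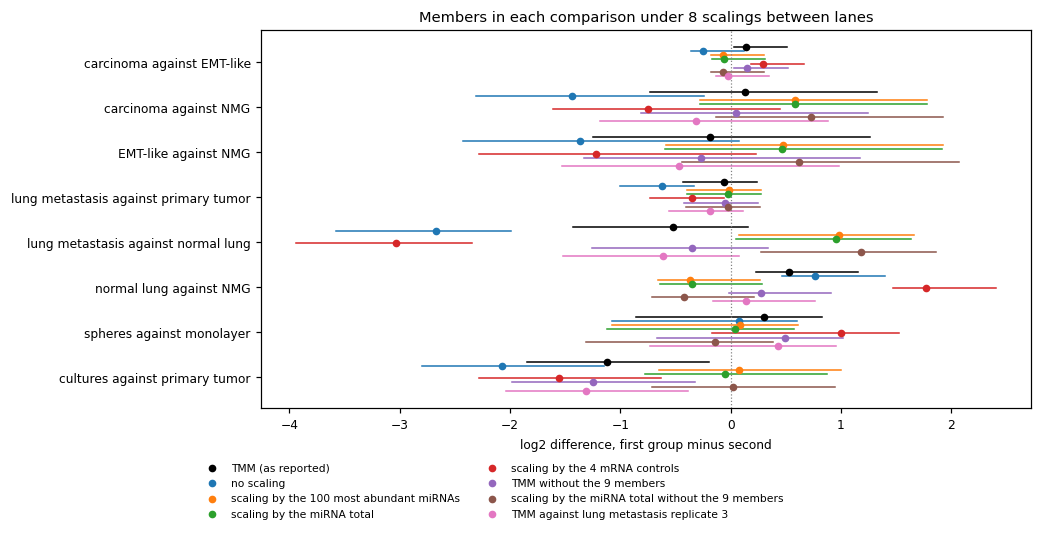
For each comparison on the y axis, the log2 difference of the members (first group minus second) under 8 ways of scaling lanes; dots are medians over the 9 members and lines run from the lowest to the highest member. For lung metastases against normal lung the medians run from -3.03 with the mRNA controls to 1.18 with the miRNA total without the members, on both sides of 0.

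A list of 5 other miRNAs was examined: miR-99a, miR-99b, miR-100, miR-125a-5p and miR-125b-5p. All but miR-125b-5p have a listed gene within 10 kb of a member's gene. Level differences of the 5 are given with TMM scaling only. With other scalings, those of several members changed size or direction in the same comparisons, as given above. miR-125a-5p and miR-99b share a cluster with mmu-let-7e. miR-125a-5p was higher than in NMG by 1.04 for carcinoma (SE 0.321, adjusted p = 0.0186, limma) and by 1.05 for EMT-like samples (SE 0.308, adjusted p = 0.0130, limma), and miR-99b by 0.73 and 0.74 without passing (adjusted p = 0.0763 and 0.0681, limma). Within lanes, the log2 ratio of mmu-let-7e to miR-125a-5p was -0.79 ± 0.110 (SD, n = 5) for carcinoma, -0.87 ± 0.228 (SD, n = 7) for EMT-like samples and -1.08 ± 0.470 (SD, n = 2) for NMG, with overlapping ranges. The same ratio was -0.87 ± 0.423 (SD, n = 2) in normal lung and -0.68 ± 0.0234 (SD, n = 4) in lung metastases, again overlapping. The log2 ratio to miR-99b was 2.26 ± 0.291 (SD, n = 5) for carcinoma and 1.66 ± 0.0451 (SD, n = 2) for NMG, without overlap. For lung metastases it was 1.94 ± 0.212 (SD, n = 4) and for normal lung 0.74 ± 0.174 (SD, n = 2), also without overlap. miR-99b itself fell by 1.03 on the log2 scale in lung metastases against normal lung (SE 0.312, adjusted p = 0.00943, limma).

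miR-99a, encoded beside a gene of mmu-let-7c, was lower than in NMG. It fell by 1.82 on the log2 scale for carcinoma (SE 0.425, adjusted p = 0.00261, limma) and by 2.51 for EMT-like samples (SE 0.407, adjusted p = 6.31e-05, limma), while mmu-let-7c differed by 0.22 and 0.19 (adjusted p = 0.630 and 0.689, limma). The log2 ratio of mmu-let-7c to miR-99a was 1.69 ± 0.707 (SD, n = 2) for NMG and 4.39 ± 0.332 (SD, n = 7) for EMT-like samples, without overlap. miR-100 and miR-125b-5p did not pass in either comparison. In cultures against primary tumors, miR-100 fell by 3.20 on the log2 scale (SE 0.614, adjusted p = 0.000259, limma) and the other 4 did not pass. miR-100 was above the detection limit in 1 of 4 culture lanes.

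The members varied together to different degrees. Over the 24 samples, the correlation of log2 levels between members had a median of 0.70 over 36 pairs and ran from -0.31 to 0.94, and over the 16 tumor samples from 0.12 to 0.92. These points share lanes and scale factors. Of the 187 other mouse probes above the detection limit in at least 12 samples, those most like the mean of the 9 members over 24 samples were miR-1951 (r = 0.91), miR-106b (r = 0.90), miR-1935 (r = 0.89), miR-16 (r = 0.89) and miR-19b (r = 0.88). Over the 16 tumor samples alone, those r values lay between 0.32 and 0.64. The least like were miR-871 (r = -0.84), miR-670 (r = -0.79) and miR-709 (r = -0.74).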

How the data were processed

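RNA was purified by the authors with the miRNeasy Micro Kit and read on nCounter mouse miRNA panels. The steps by which the authors made the deposited values (unit: other) are not given in the sources used here, beyond Partek, named with no role in the submitters' processing notes. The deposited values were whole numbers, 35.2% of the miRNA values were below 0, the lowest -20, and the negative controls averaged -0.33 to 0.17 in every lane, so they were read as counts less that mean and, from the unequal lane totals, as not scaled between lanes. Values were floored at 0, scaled by TMM factors divided by their geometric mean, and compared as log2(value + 1) with limma 3.58.1 in R 4.3.3, as 1 fit with trend over 24 samples in 7 groups. Benjamini-Hochberg adjustment ran over 583 probes, and a call is an adjusted p under 0.05. This fold change understates that of low probes. Every member is named. Counting precision is limited by lane totals of 26420 to 2335740. The let-7a row states a share of 0.013 of positive control A as its background, which is 0.196% to 10.4% of its values. The members and lists were chosen with earlier results of these data known. The script was tested on simulated data. Animals named on the labels pair tumor samples, and numbers pair normal tissues: deviations of the same animal had a median correlation of 0.103 over 10 tumor pairs (-0.307 to 0.295). Alternatives comprised 7 scalings, background, filter, pseudocount, samples in the fit, block, series and each sample left out. Other miRNAs were not analysed here beyond the lists named.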

Additional observations from a re-analysis of the deposited data

Results flagged for a closer look

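mmu-let-7a in EMT-like replicate 1, at a normalized value of 3639, lay far below the other 6 EMT-like samples, which ran up to 6749. On the log2 scale its gap to the nearest sample was 0.691 of the group's range, past Dixon's critical value. It was 1 such sample in 27 tests of a member in a group of 4 to 7 samples, and chance flags about 1 test in 20.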

How the results depend on the processing

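The number of members called on the level scale depended on how lanes were scaled, and the cause was not tested. For carcinoma against NMG (2 called), the count was 7 with no scaling, all lower in carcinoma, against 2 higher with TMM. It was 4 with the 100 most abundant miRNAs, 4 with the miRNA total and 5 with that total without the members, all higher, 0 with the mRNA controls and 1, higher, with a higher background. Another TMM reference lane left 1 higher and 1 lower. For EMT-like areas against NMG (1 higher, 1 lower), it was 5 in unscaled lanes and 1 on the mRNA controls, all lower, and 4, 4 and 5 with the 100 most abundant, the total and the total without the members, all higher. There mmu-let-7g was at -0.59, -0.60 and -0.44 and not called. For lung metastasis against normal lung (2 lower), it was 9 with no scaling, 9 with the mRNA controls and 7 with a higher background, all lower in metastases, but 6, 6 and 6 with those other scalings, all higher. Cultures against primary tumor (8 called) had 4 (3 higher), 3 (2 higher) and 3 (2 higher), against 8 lower with TMM. Spheres against monolayer (0 called) had 2 lower under each of these and 1 lower with a higher background. Lung metastasis against primary tumor (0 called) had 1 lower with no scaling and 2 lower with a higher background, and normal lung against NMG (0 called) had 2 higher with the mRNA controls. The shift of the median of all probes that these scalings brought ran from -1.72 to 1.05 on the log2 scale.

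Directions that turned are given for the 100 most abundant, the total and the total without the members. In cultures against primary tumor mmu-let-7a was at 0.15, 0.020 and 0.091, mmu-let-7b at 0.47, 0.34 and 0.41 and mmu-let-7c at 0.39, 0.26 and 0.33. There mmu-let-7d was at 0.075 with the first and 0.019 with the last, and mmu-let-7i at 0.077 and 0.021. In lung metastasis against normal lung mmu-let-7g was at 0.090, 0.061 and 0.28 and mmu-let-7i at 0.080, 0.052 and 0.27. In carcinoma against NMG, no scaling gave -0.88 for mmu-let-7b and -0.25 for mmu-let-7e, and the mRNA controls gave -0.19 for mmu-let-7b.

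Relative to the family mean, which does not use the lane scaling, a higher background gave 6 called in cultures against primary tumor (3 called) and 0 in spheres against monolayer (1 called), where the 4 samples alone also gave 0. Lung metastasis against primary tumor (0 called) gave 1 with only its samples and 2 with the label series as a term. The relative calls of mmu-let-7e in both tumor areas against NMG and in cultures against primary tumor, of mmu-let-7g in EMT-like areas against NMG and of mmu-let-7f in cultures held in all 30 alternatives run on them.

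With each sample left out in turn, the count of members called on the level scale ran from 1 to 3 for carcinoma against NMG and for EMT-like areas against NMG, with the lowest without either NMG sample. It ran from 0 (without normal lung replicate 2) to 4 (without EMT-like replicate 1) for lung metastasis against normal lung, from 0 to 2 for spheres against monolayer (2 without monolayer replicate 1), and stayed at 8 for cultures. There mmu-let-7i was at -0.73 without monolayer replicate 2. Relative to the family mean it ran from 1 (without NMG replicate 1) to 4 (without either monolayer sample) for carcinoma against NMG, from 2 to 4 (without either monolayer sample) for EMT-like areas against NMG, from 1 (without normal lung replicate 2) to 6 for lung metastasis against normal lung, from 0 (without monolayer or sphere replicate 2) to 4 (without monolayer replicate 1) for spheres against monolayer, and from 3 to 6 (without monolayer replicate 1) for cultures against primary tumor.

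With the animal or number as a replicate block, the estimated correlation was -0.0051 and the counts of members called were 0, 2, 2, 0, 2, 0, 0 and 8 on the level scale, in the order carcinoma against EMT-like, carcinoma against NMG, EMT-like against NMG, lung metastasis against primary tumor, lung metastasis against normal lung, normal lung against NMG, spheres against monolayer and cultures against primary tumor. The block changed none of these counts, nor those relative to the family mean. Groups of 2 samples limit the precision of every comparison with normal tissue or culture, and lane totals from 26420 to 2335740 limit how far levels can be compared under any scaling.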
